A study of Mus musculus with 2 samples.

Results

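Calpains are calcium-dependent cysteine proteases that cut a limited number of sites in their targets. The 10 mouse genes described here encode 7 catalytic calpains (Capn1, Capn2, Capn5, Capn8, Capn9, Capn10 and Capn13), both small regulatory subunits (Capns1 and Capns2) and the inhibitor calpastatin (Cast). They were chosen by symbol from the gene and transcript tables, which held 43346 mouse genes, and all 10 were found. The rule itself uses symbols only, but the symbols were chosen with earlier results of these data known. The tables came from polyadenylated RNA of whole stomach, taken at 8 weeks from C57BL/6J mice, an inbred laboratory strain, with no treatment or genetic change given in the labels. The RNA was longer than 200 nucleotides, was depleted of ribosomal RNA, and was read as strand-specific pairs of 76 nucleotides. Both libraries, replicates 1 and 2, belong to 1 group, and each came from pooled male and female littermates. Their tissue samples have separate records but a common donor record, so an SD here measures how far these libraries differ and may not reflect separate sets of animals. There is no second condition, and the comparisons possible are between members within a library, between the libraries for each member, and between a gene's transcripts.

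Classical calpains are heterodimers. The catalytic subunit Capn1 makes mu-calpain and Capn2 makes m-calpain, and each pairs with the small subunit Capns1 through a penta-EF-hand domain that binds calcium. Capn8 and Capn9 are known as the gastrointestinal calpains: they are found together in the surface mucous (pit) cells of the stomach, where they form a complex named G-calpain. Calpastatin binds the calcium-loaded classical enzymes and blocks their active site. Capn5 and Capn10 lack the penta-EF-hand domain and are classed as atypical calpains.

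The expected counts summed to 52363597 read pairs in replicate 1 and 62452468 in replicate 2, with 1.14% and 1.12% on RNA spike-ins. Levels are given in TPM, a transcript's share of all transcripts after correction for its length. Gene positions and transcript classes are those of GENCODE M21 on mm10. The tissue label was checked against marker lists. Pit cell markers (5 of 5 at a TPM of at least 1 in both libraries, summed 72281 and 70636 TPM in replicates 1 and 2), neck mucous markers (3 of 3), chief cell markers (3 of 3) and parietal cell markers (2 of 2) were all present. Markers of squamous forestomach (7 of 7), smooth muscle (4 of 4) and skeletal muscle (4 of 4) were also present, and none of the marker genes in these lists was at 0. In a whole organ, fewer cells of a type and less RNA per cell cannot be told apart.

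A feature of the coding sequence separates the members and is shown first, because the junction data below turn on it. Capn1, Capn2 and Capn8 each have a coding exon of 12 bases and Capn13 one of 9 bases. The annotated main transcripts of Capn9, Capn5, Capn10, Capns1 and Cast have no inner exon this short, and Capns2 has a single exon. The sequences, from GENCODE M21 transcripts, run 5′ to 3′ on the transcript strand, with the short exon in capitals and 24 bases of each flanking exon in lower case. The short exons lie at chr19:5996779-5996790 (Capn1, minus strand), chr1:182482536-182482547 (Capn2, minus strand), chr1:182611089-182611100 (Capn8, plus strand) and chr17:73333498-73333506 (Capn13, minus strand) on mm10. The Capn9 line is the matching join of its exons 10 and 11, of 158 and 209 bases, chosen because the exon that follows the short exon in Capn1 also has 209 bases.
Capn1-201: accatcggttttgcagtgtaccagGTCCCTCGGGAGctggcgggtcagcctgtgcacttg
Capn2-201: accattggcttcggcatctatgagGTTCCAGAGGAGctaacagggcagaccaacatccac
Capn8-201: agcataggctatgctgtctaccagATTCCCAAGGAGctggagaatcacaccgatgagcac
Capn13-201: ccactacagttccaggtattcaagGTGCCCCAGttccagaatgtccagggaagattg
Capn9-201: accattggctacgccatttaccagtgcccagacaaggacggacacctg

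Most members were expressed well above the detection level. A TPM of at least 1 in both libraries was met by 9 of the 10 members, against 48.9% of the 21474 protein-coding genes, and Cast was the exception. Since the members were chosen with earlier results of these data known, this count is a description only. The 10 mean levels ran from 0.635 TPM for Cast to 582 TPM for Capns1. In descending order the members were Capns1, Capn9, Capn5, Capn1, Capn10, Capn8, Capn2, Capn13, Capns2 and Cast. The values of Capn5 and Capn1 overlapped between the libraries, as did those of Capn8 and Capn2, so the order within these pairs is not set by these data. Every other neighbouring pair kept the same order in both libraries. Restricting each gene to its protein-coding transcripts of at least 500 bases changed some of these levels by more than 1.5-fold, as described gene by gene below.

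**Figure D1:**
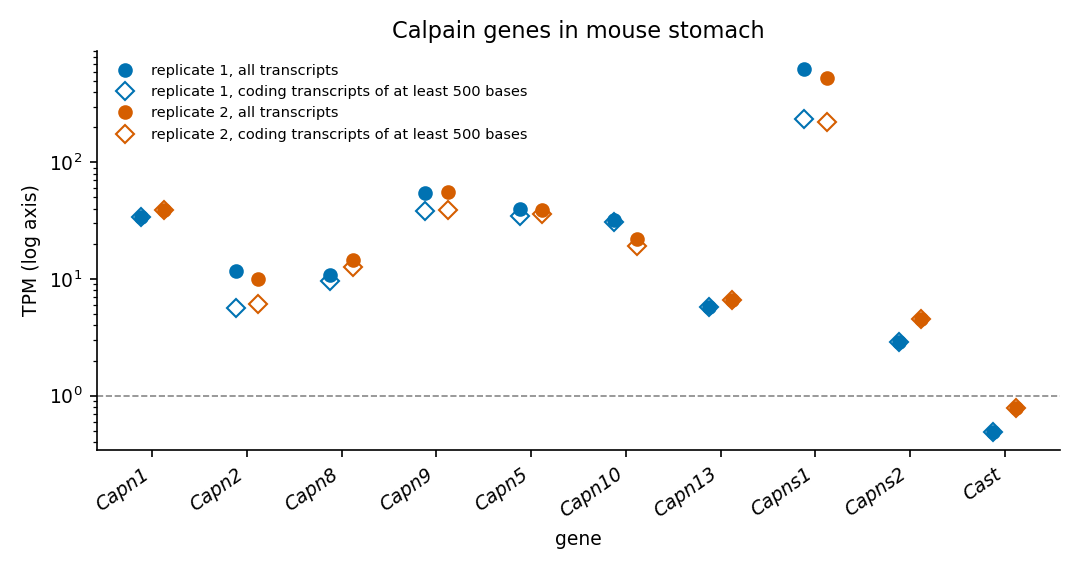
TPM of the 10 genes (log axis) in replicate 1 (blue) and replicate 2 (orange). Filled circles are the gene's TPM over all transcripts and open diamonds the TPM of its protein-coding transcripts of at least 500 bases, and the dashed line marks a TPM of 1. Capns1 stands above all other members by either measure, Cast lies under the line in both libraries, and the open and filled marks part most for Capns1, Capn2 and Capn9.

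Among the classical catalytic subunits, Capn1 was the higher one. Capn1 (ENSMUSG00000024942.12, chr19:5988545-6015897) was at 33.86 TPM in replicate 1 and 38.87 TPM in replicate 2 (36.4 ± 3.54, SD, n = 2), from 5645 and 7740 read pairs. Capn2 (ENSMUSG00000026509.11, chr1:182467260-182517608) was at 11.82 and 9.96 TPM (10.9 ± 1.32, SD, n = 2). Both Capn1 values lay above both Capn2 values, and the ratio of Capn1 to Capn2 was 2.87 in replicate 1 and 3.90 in replicate 2. The Capn2 level depended on how transcripts were counted. Its full-length coding transcript Capn2-201 held 5.63 and 6.08 TPM, while Capn2-203, which is annotated as a retained-intron transcript, held 5.70 and 3.67 TPM. On protein-coding transcripts of at least 500 bases the Capn1 to Capn2 ratio was 6.01 and 6.40, and the libraries of Capn2 overlapped with those of Capn13 (5.72 and 6.61 TPM).

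The reads along Capn2 can be set beside that split. Capn2-203 keeps an intron of 1026 bases, and the deposited contigs (stretches of the genome covered by reads, not split by library) covered 0.390% of it. The exons before and after this intron were covered in full, at contig signals of 2.91 and 1.26. Splicing of that intron was seen in 34 junction reads. Introns of 3281 and 15921 bases, annotated only in Capn2-203, had 0 junction reads each. The last exon of Capn2-203 also runs 298 bases into the next intron, and there the contigs covered 65.1% of the bases at a signal of 1.38. So 42.5% ± 8.10 (SD, n = 2) of the Capn2 TPM was assigned to Capn2-203, while the intron that sets it apart was almost bare of contigs. How the contigs treat reads that align to several places is not stated in the sources used here.

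Capn1 transcripts differed in their first exon. Capn1-201 held 76.7% and 85.4% of the Capn1 TPM and Capn1-202 held 23.3% and 14.6%. Junction reads from these first exons, which the deposited table does not assign to a library, numbered 191 for Capn1-201 and 17 for Capn1-202, a share of 91.8% for Capn1-201 (exact 95% binomial interval 87.2 to 95.2%). The 2 transcripts share all but 90 of the 3048 bases of Capn1-202. Intervals on reads cover counting error alone, because no molecular identifiers mark copies of the same molecule.

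Of the gastrointestinal pair, Capn9 was the higher. Capn9 (ENSMUSG00000031981.7, chr8:124576111-124618731) was at 54.59 and 55.53 TPM (55.1 ± 0.665, SD, n = 2), from 4713 and 5722 read pairs. Capn8 (ENSMUSG00000038599.10, chr1:182565007-182632352) was at 10.74 and 14.54 TPM (12.6 ± 2.69, SD, n = 2), from 1373 and 2223 read pairs. The Capn9 values were thus 5.08 and 3.82 times the Capn8 values, and the libraries did not overlap. Beside the protein-coding genes as a whole, Capn9 stood at the 93.8th percentile of mean TPM and Capn8 at the 80.0th. Pit cell markers, named here because pit cells are the known site of both genes, did not move one way between the libraries. Of the 5 markers, Muc5ac (log2 ratio 0.84, replicate 2 over replicate 1), Gkn1 (0.45) and Gkn2 (0.44) were higher in replicate 2, and Tff1 (-0.17) and Psca (-0.30) were lower. The log2 ratio of Capn8 was 0.43 and that of Capn9 was 0.01, and the part of pit cell content in either was not tested.

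Part of the Capn9 level rested on very short transcripts. Capn9-201, of 2330 bases, held 38.09 and 38.71 TPM and nearly all read pairs (4680.3 and 5681.4). Capn9-202, of 224 bases, held 11.44 and 16.12 TPM from only 12.7 and 36.6 read pairs, and every one of its bases also lies in exons of Capn9-201. Capn9-203, of 274 bases, held 5.06 and 0.70 TPM from 20 and 4 read pairs. These short transcripts together took 30.2% and 30.3% of the Capn9 TPM. On protein-coding transcripts of at least 500 bases Capn9 was at 38.4 ± 0.438 TPM, next to Capn1 at 36.4 ± 3.55 TPM and Capn5 at 35.7 ± 0.983 TPM (SD, n = 2 each). By that measure the libraries of Capn9 and Capn1 overlapped, so the lead of Capn9 over Capn1 was not held. At the first splice junction, 56 reads used the first exon of Capn9-201 and 22 that of Capn9-202, a share of 28.2% for the latter (exact 95% binomial interval 18.6 to 39.5%). The deposited table gives these reads as parts named R1 and R2, which the sources used here do not tie to a library, and the Capn9-202 share was 10.5% in R1 and 45.0% in R2.

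Capn8 has a long and a short coding form. Capn8-201 encodes 703 amino acids and Capn8-202 encodes 381, because Capn8-202 leaves the shared exon 9 for an exon in which the reading frame runs on for 8 bases to a stop codon. The join is shown for both, with the end of exon 9 in lower case and the next exon in capitals up to the stop codon of the short form. The capitals are chr1:182607594-182607617 and chr1:182605233-182605243 on mm10, plus strand.
Capn8-201: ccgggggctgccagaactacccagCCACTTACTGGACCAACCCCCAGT
Capn8-202: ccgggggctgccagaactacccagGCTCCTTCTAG
Capn8-201 held 82.3% and 75.9% of the Capn8 TPM. Capn8-202 and the non-coding Capn8-204, which have the same length of 2483 bases, were given equal values in the tables, 7.64% and 10.5% each. Junction reads leaving exon 9 numbered 56 for the long form and 13 for the exon of Capn8-202 and Capn8-204, a share of 18.8% for the latter (exact 95% binomial interval 10.4 to 30.1%). The short form had 9 reads against 21 of the long form in R1 and 4 against 35 in R2, parts of the junction table that are not tied to a library, as noted for Capn9, so its share differed between them by more than 1.5-fold. The long form was ahead in TPM in both libraries and in junction reads in both parts.

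Capn2 and Capn8 are neighbours on chromosome 1. They are transcribed away from each other with a gap of 47.4 kb and 0 protein-coding genes between them. Their translated coding sequences were 60.7% identical over 700 aligned residues, close to the 61.5% of Capn1 and Capn2. Capn8 and Capn9, the gastrointestinal pair, were 51.0% identical. Between the libraries, Capn2 was lower in replicate 2 (log2 ratio -0.24) and Capn8 was higher (0.43).

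Among the other catalytic calpains, Capn5 had a level that overlapped with Capn1. Capn10 lay below both in each library, and Capn13 was lower still. Capn5 (ENSMUSG00000035547.10, chr7:98121559-98178274), an atypical calpain known for its role in retinal disease, was at 39.56 and 38.68 TPM (39.1 ± 0.622, SD, n = 2). Capn10 (ENSMUSG00000026270.7, chr1:92934376-92947941), an atypical calpain studied as a diabetes susceptibility gene, was at 32.21 and 21.93 TPM (27.1 ± 7.27, SD, n = 2). Capn13 (ENSMUSG00000043705.6, chr17:73306464-73400866), a less studied family member, was at 5.72 and 6.61 TPM (6.17 ± 0.629, SD, n = 2). In the deposited TPM Capn5 was the steadiest of the 3 between the libraries, relative to its level, and Capn10 the least steady. The translated coding sequence of Capn10 was 29.4 to 33.6% identical with those of the other 6 catalytic members.

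Capn5 transcripts gave a different picture by junctions and by TPM. Capn5-201, of 4498 bases, held 69.6% and 68.1% of the Capn5 TPM and Capn5-202, of 2232 bases, 18.8% and 25.9%. At the first intron, 355 junction reads used the first exon of Capn5-202 and 194 that of Capn5-201. Among these reads Capn5-202 had a share of 64.7% (exact 95% binomial interval 60.5 to 68.7%). Its share was 65.8% in R1 and 63.8% in R2. Other junctions at the same splice site were left out of this share: 7 reads for Capn5-203, and 26 and 20 for unannotated junctions. Only 67 bases of Capn5-202 lie outside the exons of Capn5-201. Omp, a gene on the same strand within Capn5, was assigned 380 and 362 read pairs. Whether some of them came from unspliced Capn5 RNA was not tested.

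Both of the larger Capn10 transcripts were lower in replicate 2. Capn10-201, which encodes 666 amino acids, was at 20.46 and 15.55 TPM, from 3191.2 and 2892.6 read pairs before scaling for depth. Capn10-202, a transcript of 1268 bases that encodes 264 amino acids, was at 10.23 and 3.57 TPM, a fall from 31.8% to 16.3% of the gene. It had 628.7 and 263.6 read pairs, fewer than Capn10-201, and its weight in TPM is larger because it is shorter. The longer form led in both libraries. Junction reads along Capn10-201 were uneven, from 15 at intron 3 to 959 at intron 9, with a median of 178.

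**Figure D2:**
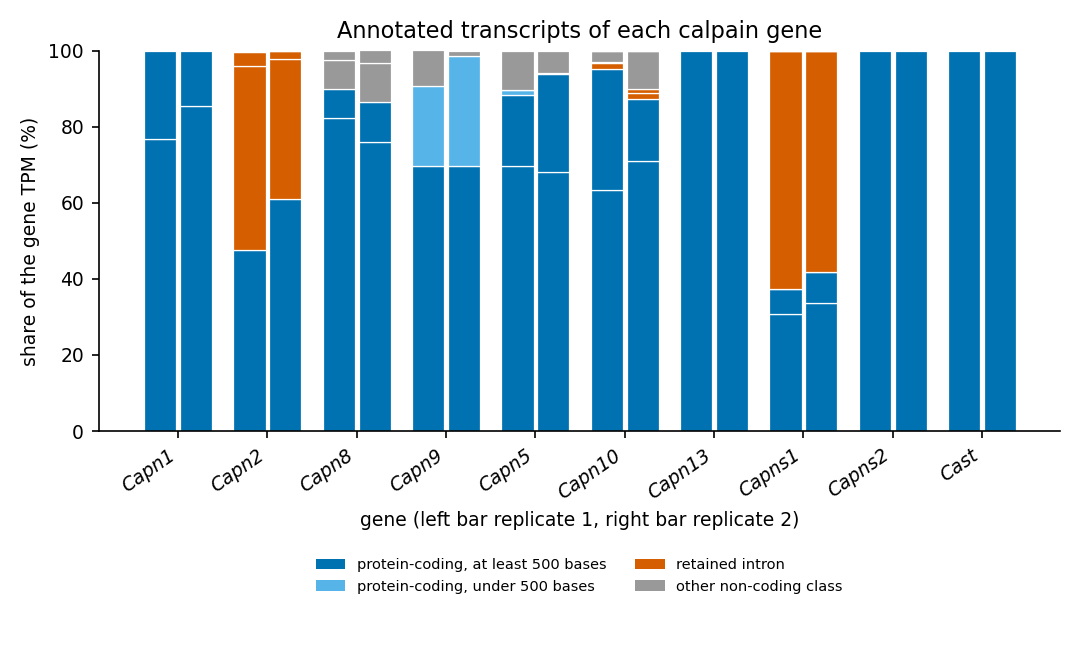
Share of each gene's TPM held by its annotated transcripts (vertical axis, %), with replicate 1 as the left and replicate 2 as the right bar of each gene and white lines between transcripts. Retained-intron transcripts take most of Capns1 (Capns1-207 alone 62.7% and 58.0%) and a large part of Capn2, and coding transcripts under 500 bases appear in Capn9. Capn13, Capns2 and Cast are quantified as 1 transcript each.

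The 7 catalytic members summed to 188.5 TPM in replicate 1 and 186.1 TPM in replicate 2 (187 ± 1.68, SD, n = 2). Capn9 made up 29.4% ± 0.619 of the sum, Capn5 20.9% ± 0.145, Capn1 19.4% ± 2.07 and Capn10 14.4% ± 3.75 (SD, n = 2 each). Capn8 had 5.70% and 7.81% in replicates 1 and 2 and Capn2 had 6.27% and 5.35%, so their order differed between the libraries. Capn13 was lowest with 3.29% ± 0.366 (SD, n = 2). On protein-coding transcripts of at least 500 bases the sum was 158.5 ± 0.219 TPM, and Capn9 (24.2%), Capn1 (23.0%) and Capn5 (22.5%) made up nearly equal parts of it. By either measure the atypical Capn5 and Capn10 together with Capn9 and Capn1 made up most of the catalytic transcripts.

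The small subunit Capns1 stood far above the enzymes it serves. Capns1 (ENSMUSG00000001794.8, chr7:30186936-30198811) was at 631.89 and 532.1 TPM (582 ± 70.6, SD, n = 2), the 119th highest of the protein-coding genes, from 23297 and 25056 read pairs. Its level was 13.8 and 10.9 times the summed level of Capn1 and Capn2. Capns2 (ENSMUSG00000078144.3, chr8:92901407-92902411), a close relative of Capns1 with 69.1% identical residues, was at 2.87 and 4.53 TPM (3.70 ± 1.17, SD, n = 2). Capns1 was thus 220 and 118 times as high as Capns2. Capns2 has a single exon and lies within Lpcat2 on the same strand. Lpcat2 was at 5.09 and 3.14 TPM, lower in replicate 2 where Capns2 was higher. Since Capns2 has no intron, no junction read can tell its reads from unspliced Lpcat2 RNA. Contigs covered 6.16% of the bases in 12 introns of Lpcat2, at a signal of 0.0950 against 2.54 over its exons. The part of unspliced Lpcat2 RNA in the Capns2 level was not tested.

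The larger part of the Capns1 level was assigned to a retained-intron transcript. Capns1-207, of 600 bases, held 396.43 and 308.71 TPM, or 62.7% and 58.0% of the gene. Of its 600 bases, 542 lie in exons of the coding transcripts Capns1-201 and Capns1-202, and only 58 are its own. Those coding transcripts held 235.4 and 223.0 TPM together (229 ± 8.75, SD, n = 2). On protein-coding transcripts the ratio of Capns1 to summed Capn1 and Capn2 was 5.96 in replicate 1 and 4.96 in replicate 2, so Capns1 remained above them in both libraries but by a smaller factor. Over 10 exons of Capns1-201 the contig signal averaged 37.2. The contig over the exon next to the last had a signal of 379, the contig over the exon before it, which reaches past the 58 bases of Capns1-207, had 19.3, and the one before that had 8.03. A contig carries 1 value for its whole length, so the 58 bases cannot be read apart from the exon beside them. The other 252 bases of the same intron, which Capns1-207 does not keep, were covered over 90.1% at a signal of 11.9. Splicing out the intron that Capns1-207 keeps in part was seen in 552 reads, against 1893 for the next intron and 3532 for the last. Junction reads did not follow a single direction along Capns1-201: introns 1 and 2 had 11 and 7, introns 3 to 5 had 872, 2665 and 764, and introns 6 to 8 had 74, 279 and 113.

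Calpastatin was the lowest member. Cast (ENSMUSG00000021585.8, chr13:74692368-74808810) was at 0.49 TPM in replicate 1 and 0.78 TPM in replicate 2 (0.635 ± 0.205, SD, n = 2), from 76 and 144 read pairs. At this depth 3 read pairs on Cast correspond to 0.0193 and 0.0163 TPM, so Cast was detected in both libraries. The summed level of Capn1, Capn2, Capn8 and Capn9, the classical and gastrointestinal members, was 227 and 152 times that of Cast. The inverse, the ratio of Cast to this sum, was 0.00441 and 0.00656. The deposited tables quantify Cast as a single transcript of 2894 bases, Cast-201, while M21 lists more.

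Junction reads gave a second view of Cast. Of the 38 Cast introns in M21, 22 had reads, 307 in all, and 142 of these lay in introns 9 and 10 of Cast-201. The first intron of Cast-201 had 0 reads, and the first intron shared by Cast-211 and Cast-213 had 16. The last 4 introns of Cast-201 had 0 reads each. Exons between introns with reads were covered by contigs over 81.2% of their bases, against 98.8 to 100% in the other 8 members with introns. Reads on Cast were sparse and unevenly placed along the gene.

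Levels in these libraries rose with the GC content of each gene's most abundant transcript, which is given here because it differed between members. Over 21308 protein-coding genes Spearman's rho of GC content and mean TPM was 0.53. When these genes were split by GC content into 5 bands of equal size, the median TPM was 0, 0.415, 1.55, 4.83 and 9.62 from the lowest to the highest band. Cast, with 44.5% GC, lay in band 2, where it stood at the 54.9th percentile, while among all protein-coding genes it stood at the 44.4th. The other 9 members, with 50.5 to 57.9% GC, lay in bands 3 to 5. Among the 10 members rho was 0.66, a description over genes of the same 2 libraries. Capns1 stood at the 99.1st percentile of its own band and Capn9 at the 90.3rd, both by TPM over all transcripts. For Capns1 the GC content was that of the retained-intron Capns1-207, 52.7%. The coding Capns1-202 and Capns1-201 had 54.0% and 57.3%. The part of GC content in the order of the members was not tested.

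**Figure D3:**
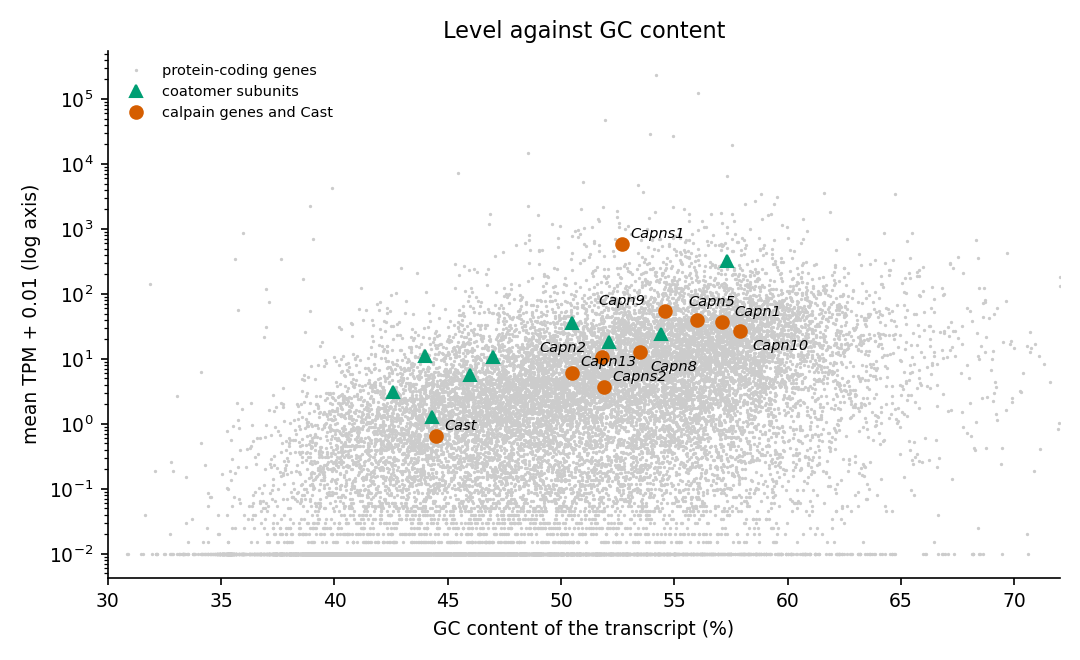
Mean TPM plus 0.01 (log axis) against the GC content (%) of each gene's most abundant transcript. Protein-coding genes are grey, coatomer subunits green triangles and the 10 members orange. The cloud rises from left to right, with Cast at 44.5% GC at the low end of the members and Capns1 above the cloud's middle at 52.7% GC.

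Other genes of the pathway gave a frame for these levels. Of all protein-coding genes 48.9% reached a TPM of at least 1 in both libraries. Of 6 other calpains measured, 3 reached it: Capn15 (17.5 ± 1.71), Capn7 (3.19 ± 0.806) and Capn12 (2.28 ± 1.36 TPM, SD, n = 2 each). The testis calpain Capn11 (0.01 and 0 TPM) and the muscle calpain Capn3 (0.21 and 0.74 TPM) were below it in both, although the posterior mean TPM of Capn3 in the same tables was 14.92 and 3.48. Capn14 had no row matched by its symbol. The median of the members' mean levels, 19.9 TPM, lay above the 1.62 TPM of these other calpains and the 1.15 TPM of all protein-coding genes. This too is a description only, because members and lists were chosen with earlier results of these data known. Of 4 other penta-EF-hand proteins 3 reached the level, led by sorcin (Sri, a calcium sensor) at 122 ± 6.07 TPM and Pef1 at 66.3 ± 11.9 TPM. Capns1 was higher than each of them.

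The listed targets of calpains varied widely in level. All 10 of the cytoskeletal and adhesion proteins listed as known calpain substrates reached a TPM of at least 1 in both libraries. Of all protein-coding genes 48.9% did so. The median of the 10 was 36.3 TPM and their range 2.27 to 665.4 TPM. The list was chosen with earlier results of these data known, so the count is a description only. Filamin A (Flna, an actin crosslinker) was the highest at 665 ± 6.44 TPM, followed by ezrin (Ezr) at 89.43 and 112.5 TPM and cortactin (Cttn) at 63.5 ± 5.74 TPM (SD, n = 2). Coatomer, the coat of vesicles that return from the Golgi to the endoplasmic reticulum, is listed because its beta subunit is a reported target of Capn8. Of 9 coatomer subunits 8 reached the level, with a median of 10.97 TPM, and Cope was the highest at 321 ± 68.3 TPM. The beta subunit Copb1 was at 2.13 and 3.95 TPM, below Capn8 in both libraries. The subunits of this complex spanned 1.25 to 320.8 TPM, and their levels rose with GC content as well (rho 0.82, n = 9).

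The libraries differed less for the members than for genes at large, as a description. Of the 9 members whose mean TPM reached 1, none differed at least 2-fold between the libraries, against 8.44% of the 11582 genes at that level, and with 9 members a count of 0 lies near that background. The median size of the log2 ratio was 0.19 for these 9 members and 0.33 for all such genes. The genes at large were not matched to the members for level or number of reads. Capns2 had the highest ratio, 0.66 (95% interval 0.36 to 0.98, counting error only), followed by Cast at 0.64 (0.24 to 1.07), which was below a mean TPM of 1. Capn10 had the lowest, -0.53 (-0.60 to -0.47). Capn9 (0.01, -0.04 to 0.07) and Capn5 (-0.03, -0.07 to 0.02) had intervals that included 0. The other 5 members ran from -0.24 (Capn2) to 0.43 (Capn8), each with an interval away from 0, which shows only that the reads of these libraries differed by more than counting error. For scale, the biological coefficient of variation estimated by edgeR over 15234 genes, from these libraries alone, was 0.293. Despite its name it may not reflect separate sets of animals, as stated for the SD. Among the other calpains Capn12 parted by more than 2-fold, with a log2 ratio of -1.31.

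Markers of some cell types also differed between the libraries. Both parietal cell markers were lower in replicate 2, Atp4a by a log2 ratio of -0.77 and Atp4b by -0.79, and their summed level was 4968 TPM in replicate 1 and 2710 TPM in replicate 2. All 3 chief cell markers were higher in replicate 2, Gif by 0.37, Pgc by 0.55 and Chia1 by 0.59, with summed levels of 103687 and 151952 TPM. The other lists had members in both directions, with summed levels of 5623 and 3759 TPM for neck mucous cells, 7254 and 4995 for squamous forestomach, 4583 and 2984 for smooth muscle and 811.2 and 789.0 for skeletal muscle. The part of cell content in the members' ratios was not tested.

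**Figure D4:**
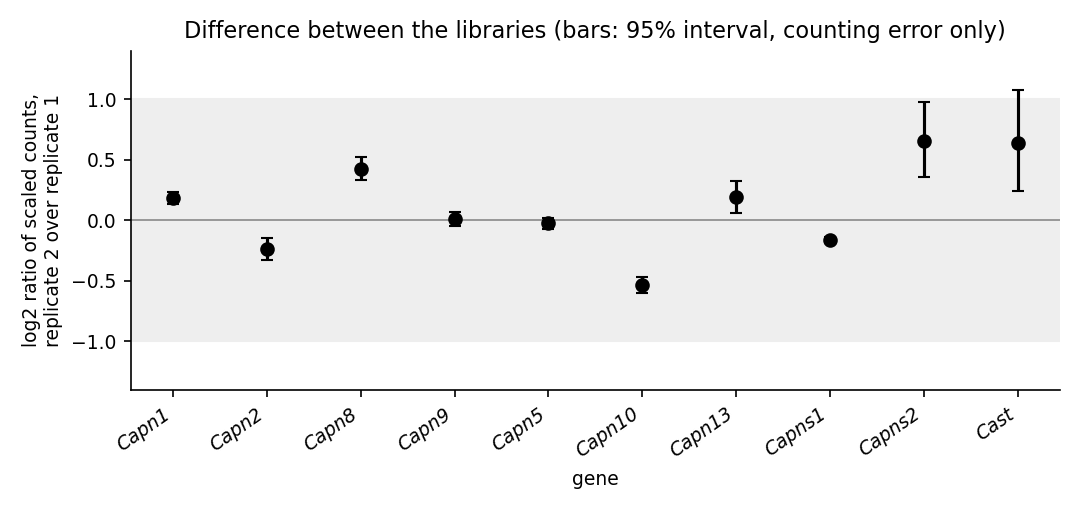
Log2 ratio of scaled counts, replicate 2 over replicate 1, for the 10 genes. Points are the ratios, bars the exact 95% intervals for counting error only, and the grey band marks less than a 2-fold difference. All 10 points lie in the band, from -0.53 for Capn10 to 0.66 for Capns2, and only the bar of Cast reaches outside it.

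Splice junctions were matched for the 9 members that have introns. Of 194 annotated introns 164 had reads, 30929 in all. The main transcripts of Capn1, Capn8, Capn9, Capn5, Capn10 and Capns1 had reads at every intron. Median reads per intron of the main transcript ran from 552 in Capns1 through 188 in Capn5, 178 in Capn10, 159 in Capn1 and 141 in Capn9 to 48 in Capn13, 45.5 in Capn8, 31.5 in Capn2 and 2 in Cast. Reads were uneven along each gene, and Capn8 had the strongest peak at its end: its last intron had 1015 reads against 122 at the one before. In Capn13 introns 8 to 14 had 0 to 10 reads each, while introns 18 to 22 had 94 to 201.

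The annotated junctions of the short exons printed above had few reads, although low counts were not particular to them. In Capn8 introns 14 and 15 had 5 reads each, in Capn2 introns 16 and 17 had 8 and 7, and in Capn13 introns 8 to 10 had 3, 6 and 6. In Capn1 the annotated junctions into and out of the 12-base exon had 12 and 49 reads, while the introns before and after this stretch had 219 and 239. In Capn8 these junctions had 10 and 6 reads against 56 and 137, and in Capn2 they had 1 and 0 against 19 and 157. In Capn13 both junctions of the 9-base exon had 0 reads against 6 and 10. In each gene the table also held an unannotated junction that passed over the short exon. It had 267 reads in Capn1, 171 in Capn2 and 96 in Capn8. No such junction joined the annotated ends of the flanking exons directly: each was shorter than that by 12 bases in Capn1 (2 at one side and 10 at the other), Capn2 (0 and 12) and Capn8 (5 and 7), the length of the exon it passed over. Capn13 had 2 unannotated junctions there, with 15 reads and 12 added bases and with 13 reads and 9 added bases.

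Capn9 could not show this pattern, because its main transcript has no such short exon. The matching join of its exons 10 and 11 crosses an intron of 132 bases, and its annotated junction had 793 reads, the most of any Capn9 junction. For Capn1, Capn2, Capn8 and Capn13, reads that entered or left the short exon by the annotation were outnumbered by reads of the unannotated junctions. Whether those reads carried the short exon was not tested, since a genome sequence was not used here and the reads are not in the tables. Expected counts and TPM come from alignments to transcripts, a separate path from these junctions.

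**Figure D5:**
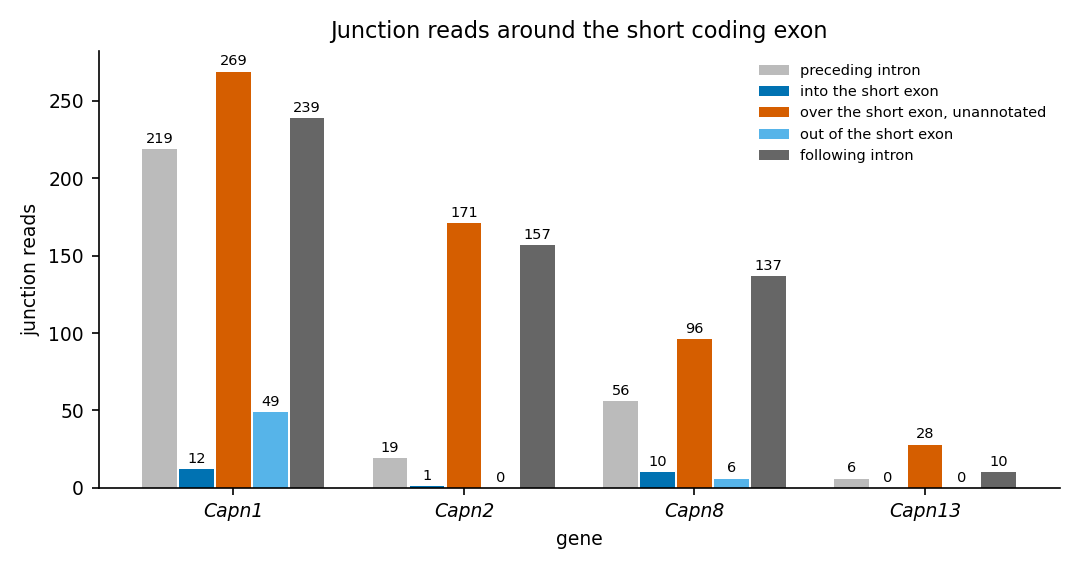
Junction reads (vertical axis, not split by library) around the short coding exon of Capn1, Capn2, Capn8 and Capn13: the preceding intron, the annotated junction into the short exon, all unannotated junctions over it, the annotated junction out of it and the following intron. In all 4 genes the bar for the unannotated junctions is higher than both bars for the annotated junctions of the short exon.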

How the data were processed

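RNA was measured in 2 libraries of mouse stomach. The authors deposited expected counts, TPM and FPKM per gene and per transcript as 1 table per library, made by aligning reads to transcripts of GENCODE M4 (mm10), per the README beside the tables and per the file headers. The same tables hold posterior estimates of TPM and of the error of each count. The aligner and the quantifier's version are not given in the sources used. Splice junctions on mm9 with counts of reads, contigs on mm9 with a signal proportional to coverage over length, and a significance score in both, were also deposited. Neither mm9 table is tied to a library, and what the score measures is not stated.

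Symbols, positions, transcript classes and sequences came from GENCODE M21 on mm10, matched on unversioned IDs (98.0% of 43346 mouse genes had a symbol). Spike-ins and phage stayed out of count scaling. Ratios used rounded expected counts, TMM scaling in edgeR 4.0.16 after filterByExpr and a prior count of 2, with exact binomial (Clopper-Pearson) intervals at 95%. DESeq2 1.42.0 size factors were an alternative. With 1 group no p-value was computed. Protein sequences of RefSeq were not used here: lengths and global identity (BLOSUM62, gap costs 11 and 1, Biopython 1.88) come from translated M21 coding sequences, counted over aligned residues. A junction was assigned where at least 2 junctions on the strand had a gene's intron lengths and spacing, and no coordinates were converted. The scripts for ratios and junction matching were tested on simulated data.

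All 10 members are named. From other lists at most 5 genes of highest TPM and 2 below TPM 1 are named, apart from Copb1, and Omp and Lpcat2, which overlap members and were named after their values were seen. The members and lists were chosen with earlier results of these data known. The measure over protein-coding transcripts of at least 500 bases was chosen after the data were seen.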

Additional observations from a re-analysis of the deposited data

How the results depend on the processing

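Clps and Pgc took 29.6% and 42.7% of the TPM in replicates 1 and 2. Leaving them out raised the median TPM of the 10 members, here taken in each library and then averaged, from 20.1 to 31.6. It also shifted every TPM ratio of replicate 2 over replicate 1 by 0.30 on the log2 scale. With that shift, 9 members rather than 6 were higher in replicate 2. The small SDs of some members did not hold: that of Capn9 rose from 0.665 to 13.8 TPM. Capn5 was then at 61.9 ± 8.05 TPM and Capn10 at 42.0 ± 5.26 TPM (SD, n = 2 each). The SD fell for Capn2, Capn10 and Capns1 and rose for all other members. The order of the mean levels did not change under that setting, under FPKM, or under posterior mean TPM. In FPKM the catalytic sum was 206.4. Over protein-coding transcripts of at least 500 bases it was 158.5 TPM and the ratio of Capns1 to summed Capn1 and Capn2 was 5.46 in place of 12.4. At a 1.5-fold limit 1 of the 9 members with a mean TPM of at least 1, Capns2, differed between the libraries, and Cast, below that level, differed 1.56-fold. Without replicate 1 or replicate 2 the median TPM was 18.2 or 22.0, the catalytic sum 186.1 or 188.5, the Capns1 ratio 10.9 or 13.8 and the Cast ratio 0.00656 or 0.00441. Under the score limit of 0.1, 124 of the 164 introns with reads were left. No paired analysis was possible because there is 1 group only. Depth limits Cast and Capns2 most, with 76 and 132 read pairs in replicate 1.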
